A study of Macaca fascicularis with 6 samples.

Results

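The larger-vessel endothelial cells of the lung are the cells that line its arteries, its veins and the vessels of the airway wall. In the lungs of cynomolgus monkeys they were picked cell by cell from single-cell RNA counts, and 214 of 25388 cells that passed the quality filter (0.843%, 95% Clopper-Pearson interval 0.734% to 0.963%) were members. A member had at least 1 UMI (a uniquely tagged RNA molecule) of at least 2 of 6 endothelial genes (PECAM1, CLDN5, CDH5, EGFL7, ESAM and RAMP2) and of at least 2 of 7 larger-vessel genes (CPE, IGFBP3, CRIM1, FBLN2, ACKR1, VCAM1 and GJA5). It had at most 1 of 6 capillary genes (HPGD, ADGRL2, ADGRF5, RAMP3, SLC6A4 and STC2), and no UMI of PTPRC, the pan-leukocyte antigen, or of the lymphatic genes PROX1 and MMRN1. These 22 genes were measured in the same cells that they picked, so their levels are given as a description and were not tested.

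The study compared lung tissue of 6 male monkeys aged 3 to 5 years, with 1 droplet library per monkey. The control group held replicates 1, 2 and 3 and the asthma group replicates 8, 10 and 11. Asthma monkeys had been sensitized under the skin with antigen of the roundworm Ascaris suum in adjuvant and then challenged through the nose, while controls received saline, so the model is an allergic response to worm antigen. Dissociated tissue was depleted of dead cells before loading, with no sort for endothelium.

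Endothelium differs along the vascular tree. Arterial cells, which face high pressure and pulsatile flow, use Notch signals and produce matrix and vasodilator enzymes, whereas venous and venular cells carry P-selectin and the chemokine receptor ACKR1 and are the usual site at which leukocytes leave the blood. Capillary cells are thin, carry carbonic anhydrase 4 and VEGF receptors, and serve gas exchange. The von Willebrand factor gene VWF, a clotting protein stored with P-selectin in Weibel-Palade bodies, is a classic product of larger vessels.

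The control libraries (replicates 1, 2, 3) gave 24, 11 and 72 members, and the asthma libraries (replicates 8, 10, 11) gave 35, 33 and 39, so that each group had 107. Control replicate 3 alone held 72 of the 107 control members. The members of a library summed to 177084, 76950 and 538208 UMIs in the controls and to 218260, 239481 and 179134 in the asthma group. Their median depth was 7110 UMIs per cell in the control group and 4688 in the asthma group, against 2626.5 in capillary endothelial cells of both groups. At least 2 of the 6 endothelial genes were found in 1145 cells without PTPRC, of which 82 had a PROX1 or MMRN1 UMI. Of the others 646 had a capillary profile by the mirror image of the rule, 114 had at least 2 genes of both lists and 89 had at most 1 of either. Of the members, 5 (2.34%) were scored as doublets, against 3.41% of all filtered cells, and all were kept. Between any pair of libraries 5 to 13 cell barcodes were shared, and 3 members had a barcode that was also present in another library.

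The endothelial label held for most members and failed for some. In all, 42 members (19.6%, interval 14.5% to 25.6%) had 3 or more UMIs of the fibroblast genes DCN, COL1A1, COL1A2, LUM and PDGFRA, with 2, 4 and 7 in the controls and 6, 10 and 13 in the asthma libraries. They passed the rule mainly on its weakest count, since 38 of the 44 members with exactly 2 endothelial genes were among them, against 3 of 16 members with 3 endothelial genes, 1 of 31 with 4 and 0 of 123 with 5 or 6. PECAM1, the adhesion molecule CD31 of endothelial junctions, was detected in 40.5% of the 42 and in 99.4% of the other 172 members. CDH5, which encodes VE-cadherin, was detected in 4.76% of the 42 and in 79.1% of the 172. RAMP2, a partner of the adrenomedullin receptor, was in 100% and 98.3%, so it did not separate them. VWF and SELP, the gene of P-selectin, are not in the rule. All of the members' 3799 UMIs of VWF and 527 UMIs of SELP lay in the 172 cells, and the 42 had 0 UMIs of either, which allows at most 7.08 CPM (UMIs of the gene scaled to a common total of all UMIs).

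The 42 were of more than 1 kind. In 19 of them (1, 0 and 2 in the controls, 6, 7 and 3 in the asthma libraries) there were also at least 3 UMIs of mesothelial genes, which mark the lining of the pleura, with a median of 550. In these 19, ITLN1, a lectin of mesothelium, stood at 46339.7 CPM and MSLN, mesothelin, at 3246 CPM, against 237 and 17.9 CPM in the 172. The other 23 (1, 4 and 5 against 0, 3 and 10) had at most 1 mesothelial UMI and a median of 260 fibroblast UMIs. DCN, the collagen-binding proteoglycan decorin, stood at 29402 CPM in these 23 and at 14.9 CPM in the 172. Of the 172 others, 12 (10 control and 2 asthma) had 3 or more mesothelial UMIs, with at most 87. The 42 cells therefore go against the endothelial label, and results that rest on them are given with and without them.

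**Figure D1:**
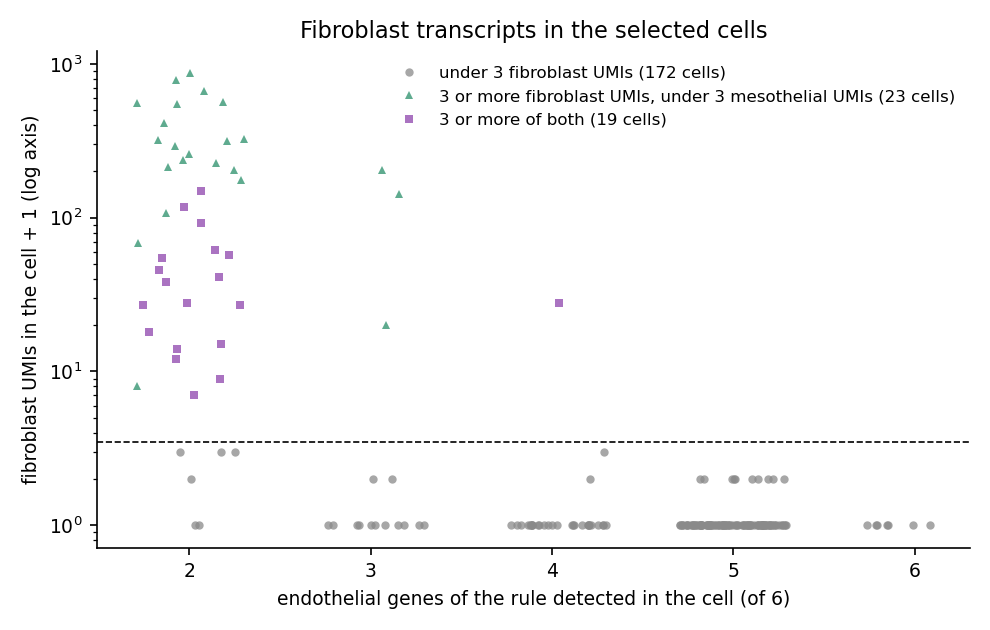
UMIs of 5 fibroblast genes plus 1 in each member (log axis, 1 point per cell) by the number of the 6 endothelial genes detected, with a dashed line below which cells have under 3 UMIs. Of the members with exactly 2 endothelial genes 38 of 44 lie above the line, and of those with 5 or 6 none of 123 do.

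Lists of other cells were summed in all members per library. The fibroblast list (10 of 10 genes detected, led by DCN) summed to 1954, 41248 and 2728 CPM in the controls and 4637, 7508 and 23798 CPM in the asthma libraries, and to 234 CPM in the 172 cells. The mesothelial list (5 of 6 detected, led by ITLN1) summed to 5997, 0 and 2495 CPM in the controls and 13397, 35924 and 5309 CPM in the asthma libraries, and to 290.5 CPM in the 172 cells. The highest sum of fibroblast transcripts was thus in control replicate 2 and that of mesothelial transcripts in asthma replicate 10. Epithelial transcripts summed to 12328 CPM in control replicate 1 and to at most 1424 CPM in any other library, with SFTPC, the surfactant protein C of alveolar type 2 cells, as the most abundant gene. ACTA2, smooth muscle actin, had 0 UMIs in the members.

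Among the larger-vessel genes of the rule, CPE, carboxypeptidase E, was detected in 97.2% of members, CRIM1, a BMP-binding membrane protein, in 80.4%, FBLN2, the matrix protein fibulin 2, in 73.8%, and IGFBP3, which binds insulin-like growth factors, in 61.7%. The leukocyte adhesion molecule VCAM1 was detected in 34.6%, the chemokine receptor ACKR1 in 14.5% and the gap-junction gene GJA5 in 2.34%. T cells, which should lack these genes, had a median of 3803 UMIs against 5570.5 in the members, and gave CPE in 3.61%, VCAM1 in 0.724%, ACKR1 in 0.339% and GJA5 in 0.0113% of cells. CLDN5, a tight-junction gene that usually marks endothelium widely, was detected in only 4.67% of members and 3.41% of capillary cells. No member had all 7 larger-vessel genes. There were 25 members with 2 of them, 69 with 3, 81 with 4, 35 with 5 and 4 with 6.

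At the edges of the rule, the 25 members with exactly 2 larger-vessel genes had a median of 2482 UMIs, and 33 cells that missed by having 1 such gene had 2808. The 73 members with 1 capillary gene had a median of 5572 UMIs, and 45 cells left out for having 2 had 6189. Of the 44 members with exactly 2 endothelial genes 86.4% had at least 3 fibroblast UMIs, and of 433 cells left out for having 1 endothelial gene 88.5% did.

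To describe the larger-vessel cells beyond the genes that picked them, their levels were set beside those of capillary endothelial cells of the same library, leaving out cells of either class with 3 or more fibroblast UMIs. Larger-vessel cells gave a larger part of their UMIs to several matrix and clotting genes, and a smaller part to those for VEGF receptor 2, basement membrane collagen IV and carbonic anhydrase 4. Of 3593 genes with at least 50 CPM in the higher class, 391 (10.9%) were higher in the larger-vessel cells in 6 of 6 libraries and 414 (11.5%) were higher in the capillary cells in 6 of 6. Counts of gene lists include members of any level, so they stand beside these shares as a description. No test was made, since the classes were cut from counts of the same cells. Levels in this comparison are mean CPM ± SD over 6 libraries, and the control capillary classes were small, with 16, 11 and 10 cells.

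Several matrix genes were far apart between the classes. MGP, matrix Gla protein, an inhibitor of vessel calcification, stood at 16428 ± 4829 CPM in larger-vessel cells (10265 to 21748 over the libraries) and at 101 ± 86.2 CPM in capillary cells, a median log2 ratio of 6.92. FN1, fibronectin, stood at 2031 ± 696 CPM against 62.2 CPM, and LTBP4, which binds latent TGF-beta, at 1533 ± 802 CPM against 53.4 CPM. No library of either class overlapped for these 3 genes. COL8A1, a short-chain collagen of vessel walls, stood at 555 ± 216 CPM against 11.1 CPM. Of 21 matrix and basement membrane genes outside the rule, 7 were higher in larger-vessel cells in 6 of 6 libraries and 2, COL4A1 and COL4A2, in capillary cells. COL4A2 stood at 32.3 CPM in larger-vessel and 561 CPM in capillary cells.

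Clotting genes differed as well. VWF stood at 3772 ± 901 CPM (2236 to 4776) in larger-vessel cells and at 445 ± 315 CPM (0 to 841) in capillary cells. PROCR, the endothelial protein C receptor, stood at 604 ± 370.4 CPM against 10.9 CPM, and F5, coagulation factor V, at 318 ± 130.1 CPM against 0.975 CPM. Of 14 coagulation genes 8 were higher in larger-vessel cells in 6 of 6 libraries, and PLAU, the urokinase gene, was higher in capillary cells. The vascular tone and permeability list was divided, with 4 of 24 genes higher in larger-vessel cells in 6 of 6 libraries (NOS3, PTGIS, PTGS1 and PTGS2) and 4 in capillary cells, with EDNRB and PLVAP among them. NOS3, the endothelial nitric oxide synthase, stood at 242 ± 163 CPM against 34.0 CPM. PTGS1, cyclooxygenase 1, stood at 186 ± 103 CPM against 15.7 CPM. EDN1, the vasoconstrictor endothelin 1, stood at 597 ± 313 CPM against 177 ± 155 CPM and was higher in 5 of 6 libraries.

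Both arterial and venous genes were present. Of 14 arterial genes 7 were higher than in capillary cells in 6 of 6 libraries (BMX, DKK2, FBLN5, LTBP4, MGP, SERPINE2 and SOX17), and of 15 venous genes 6 were (ADGRG6, C7, CLU, NR2F2, PTGS1 and SELP). Of 10 genes listed for systemic venules 1 was higher in larger-vessel cells in 6 of 6 libraries and 1 in capillary cells. That is 10% each way and so not above the shares of all genes. Which members came from vessels of the airway wall was not tested. BMX, a tyrosine kinase of arterial endothelium, stood at 267 ± 147 CPM against 6.1 CPM. NR2F2, the transcription factor COUP-TFII that specifies venous identity, stood at 320.0 ± 203 CPM against 58.7 CPM. SELP stood at 497 ± 74.0 CPM (430.0 to 591) against 10.7 CPM in capillary cells. The secreted protein genes TAC1, which encodes substance P, and DKK2, a Wnt inhibitor, stood at 399 ± 358 CPM and 318 CPM, against 0.975 and 4.3 CPM. TAC1 was the more uneven, from 18.6 to 899 CPM over the libraries.

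Lists of immune genes had members in both directions. Of 11 antigen presentation genes 3 were higher in larger-vessel cells in 6 of 6 libraries (CD74, HLA-DPB1 and HLA-DRA) and 4 in capillary cells (B2M, IFI30, TAP1 and TAP2). Of 23 cytokine and chemokine genes IL1R1 and IL33 were higher in larger-vessel cells, and IL13RA1 and LIFR in capillary cells, 8.7% each way and so not above the shares of all genes. IL33, the alarmin interleukin 33, stood at 648 ± 165 CPM (462 to 941) against 157 ± 95.7 CPM in capillary cells, higher in 6 of 6 libraries. CD74, the class II invariant chain, stood at 5552 ± 2392 CPM against 3124 ± 845 CPM, and HLA-DRA at 2230.1 ± 548 CPM against 1220.1 ± 410.0 CPM, both higher in 6 of 6. ITGA5, the fibronectin receptor subunit, and CTNNB1, beta-catenin, were higher as well, at 354 and 493 CPM against 167 and 274 CPM. Of 15 leukocyte adhesion genes 3 were higher in larger-vessel cells in 6 of 6 libraries (CD34, JAM2 and SELP) and 3 in capillary cells (CD44, GLG1 and ICAM2).

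In the other direction, none of 16 further capillary genes was higher in larger-vessel cells in 6 of 6 libraries, and 6 were higher in capillary cells. CA4, the carbonic anhydrase of capillaries, stood at 1.64 CPM in larger-vessel cells and 457 ± 504 CPM in capillary cells. KDR, VEGF receptor 2, stood at 14.4 CPM against 923 CPM, EDNRB, the endothelin B receptor, at 28.3 CPM against 641 CPM, and RGCC, a cell cycle regulator, at 16.9 CPM against 952 CPM. EPAS1, the hypoxia-inducible factor 2 alpha, was abundant in both, at 2123 ± 594 CPM against 6780.5 ± 3160.5 CPM. FLT1, VEGF receptor 1, was higher in capillary cells in 5 of 6 libraries, at 520.3 CPM against 306 CPM. With every cell of both classes kept, 394 and 497 of 3683 genes kept 1 sign in 6 of 6 libraries, and DCN, CFD, SERPINF1, CCDC80 and COL1A1 were among the 12 leading larger-vessel genes.

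**Figure D2:**
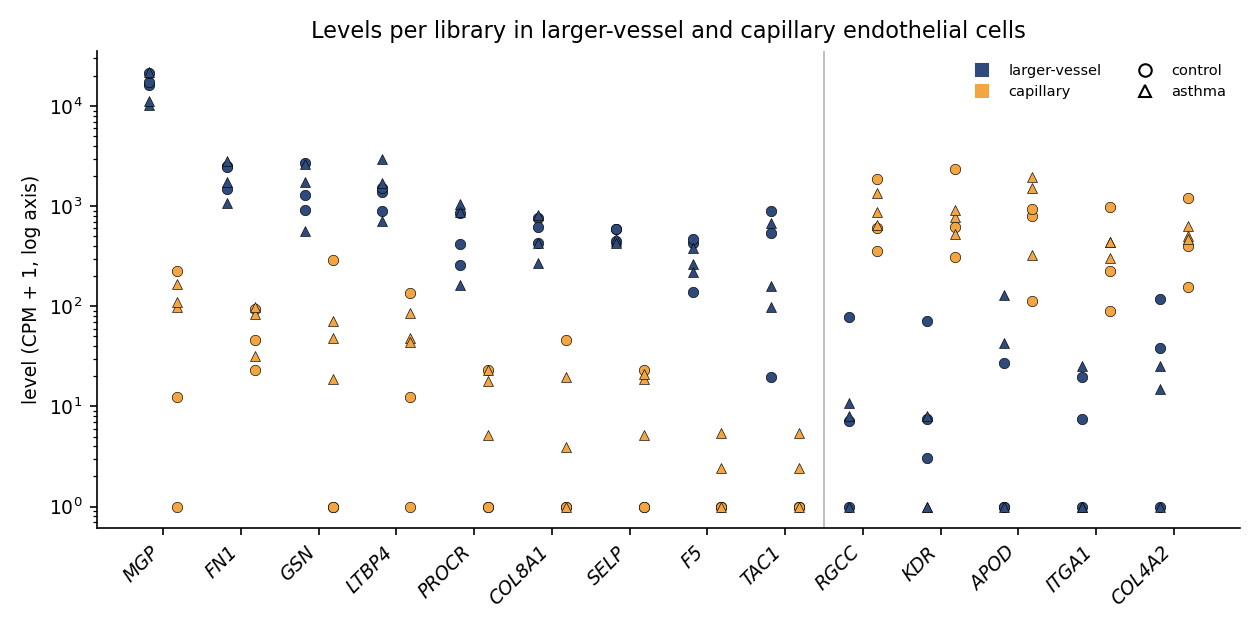
Level of 14 genes in larger-vessel and capillary endothelial cells of the 6 libraries (CPM plus 1, log axis, 1 point per library and class, circles for control and triangles for asthma), leaving out cells with 3 or more fibroblast UMIs. The 9 genes from MGP to TAC1 are higher in the larger-vessel cells of every library, and RGCC, KDR, APOD, ITGA1 and COL4A2 in the capillary cells.

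The larger-vessel cells divided further along ACKR1, which marks venules and veins. Among the 172 cells 30 had an ACKR1 UMI (5, 1 and 3 in the controls and 4, 5 and 12 in the asthma libraries), 5 had a UMI of the arterial gene GJA5 (2 in control replicate 3 and 3 in asthma replicate 8), and 137 had neither. The ACKR1 cells made up 22.7%, 14.3% and 4.62% of the 172 cells in the controls and 13.8%, 21.7% and 46.2% in the asthma libraries, and these groups overlap. Pooled over libraries the median depth was 4473.5 UMIs in the ACKR1 cells and 4783 in the 137, but within libraries the depths differed in both directions, from 9389 against 3211 in control replicate 1 to 2435 against 7071.5 in control replicate 3, and the part of depth was not tested. The split used the same counts, and in control replicate 2 it rests on 1 ACKR1 cell, so the levels, summed over the ACKR1 cells and over the 137 others, are a description with no test.

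Cells with ACKR1 had lower levels of most arterial genes and higher levels of several venous genes. MGP, the most abundant gene of the arterial list, was the exception, at 20138 CPM in ACKR1 cells and 17655 CPM in the others and higher in 4 of 6 libraries. Of 12 arterial genes none was higher in ACKR1 cells in 6 of 6 libraries, 6 were lower in 6 of 6 and 11 were lower in at least 5. Of all 3112 genes with at least 50 CPM, 66 were higher (2.12%) and 155 lower (4.98%) in 6 of 6, and 524 were lower in at least 5 (16.8%). EFNB2, the arterial ligand ephrin B2, stood at 112 CPM in the ACKR1 cells and 471 CPM in the others, and its venous receptor EPHB4 at 217 and 60.7 CPM. LTBP4 stood at 224 against 1788 CPM. Without asthma replicate 8 EFNB2 in ACKR1 cells was 71.4 CPM. Of 9 venous genes 4 were higher in 6 of 6 libraries. NR2F2 stood at 827 against 141 CPM, the complement gene C7 at 3272 against 386 CPM, and SELP at 680 against 489 CPM, while PTGS1, also on the venous list, was lower, at 49.0 against 256 CPM, with all 7 of its UMIs in ACKR1 cells from control replicate 1. C7 in the others was 759.9 CPM without control replicate 3 and 246 CPM without asthma replicate 10.

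The pooled levels mix libraries unequally, since control replicate 3 gave 60 of the 137 others and 3 of the 30 ACKR1 cells. Outside these lists, TAC1 stood at 953 CPM in ACKR1 cells and 138 CPM in the others, or at 742 and 232 CPM as means that weight the 6 libraries equally, and was higher in 6 of 6. UBD, an interferon-inducible ubiquitin-like protein, stood at 533 against 31.6 CPM pooled, and TNFRSF11B, osteoprotegerin, at 350.3 against 48.5 CPM. Both were higher in 6 of 6 libraries, but UBD in ACKR1 cells was 206 CPM without asthma replicate 8 and TNFRSF11B 105 CPM without control replicate 1. UBD in the others was 19.1 CPM without control replicate 3. TAC1 in the others was 52.9 CPM without control replicate 1 and 292 CPM without control replicate 3. IGFBP3 had 0 UMIs in the ACKR1 cells, under 21.0 CPM, and stood at 2198 CPM in the others. IGFBP3 and ACKR1 both belong to the rule, so each member could enter through either, and their split is fixed in part by it. HEY2, a Notch target, BGN, the proteoglycan biglycan, and CYP26B1, which degrades retinoic acid, also had 0 UMIs in ACKR1 cells, against 194, 235 and 214 CPM (HEY2 115 CPM without control replicate 3). VWF, at 4807 and 3615 CPM, was high in both.

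**Figure D3:**
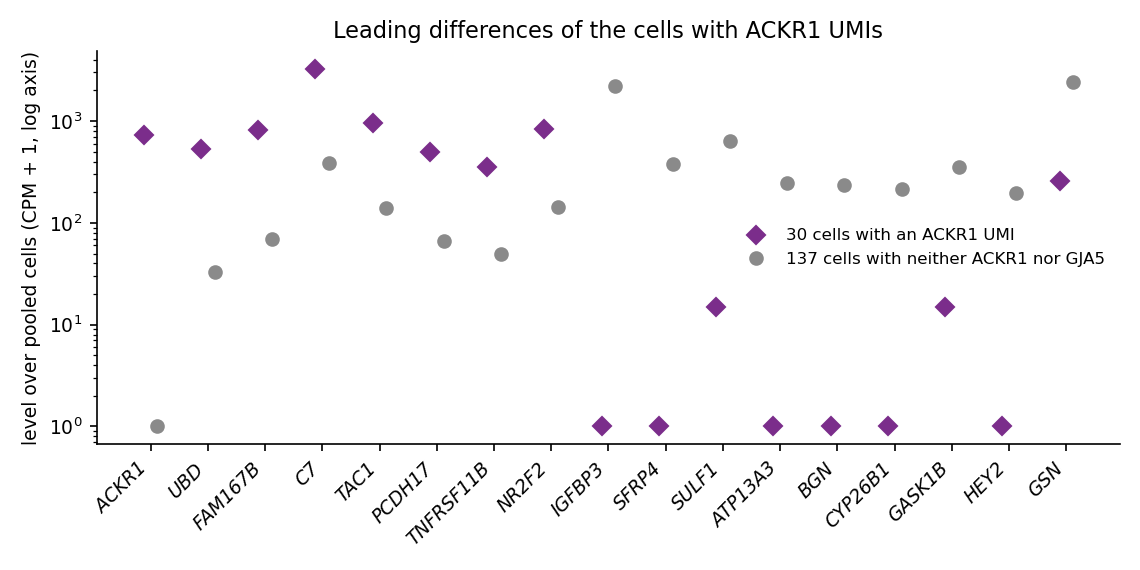
Level of leading genes in the 30 ACKR1 cells (diamonds) and the 137 cells with neither ACKR1 nor GJA5 (circles), all with under 3 fibroblast UMIs (CPM plus 1 over pooled cells, log axis), for genes with the same direction in 6 of 6 libraries. SFTPC, the surfactant gene of alveolar type 2 cells, is not drawn, though it was lower in ACKR1 cells in 6 of 6 libraries (217 against 2448 CPM). C7, TAC1 and NR2F2 are higher in ACKR1 cells, while IGFBP3, SFRP4, ATP13A3, BGN, CYP26B1 and HEY2 had 0 UMIs there.

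How much of the lung sample these cells made up was compared between the groups. As a share of all filtered cells they were 0.532%, 0.313% and 1.77% in the controls and 0.813%, 0.699% and 0.912% in the asthma libraries. The control libraries lay on both sides of the asthma libraries. The means were 0.872% ± 0.786 and 0.808% ± 0.106 (SD, n = 3), a difference of -0.0641 percentage points that was within the spread between monkeys (two-sided exact permutation test, p = 1, smallest possible 0.1). Control replicate 3 set the direction, since without it the means were 0.423% and 0.808%, asthma being higher by 0.385 points (exact p = 0.1, the smallest possible). Among cells without PTPRC only, the shares were 3.24%, 2.81% and 9.22% against 3.52%, 3.1% and 2.62%, with means of 5.09% and 3.08% that again overlap (exact permutation p = 0.6).

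Within the endothelium the picture differed. Larger-vessel cells were 38.1%, 25.6% and 65.5% of endothelial cells in the controls and 13.4%, 12.6% and 9.61% in the asthma libraries, so every control library was above every asthma library. The means were 43.0% ± 20.4 and 11.9% ± 1.99 (n = 3), a difference of -31.2 points at the smallest p that 3 against 3 allows (two-sided exact permutation test, p = 0.1). The number of capillary cells moved beside it. Capillary cells were 0.305% ± 0.055 of filtered cells in the controls and 4.60% ± 1.32 in the asthma group (exact permutation p = 0.1, n = 3). Larger-vessel cells were deeper in the controls, and every filtered cell with at least 2000 UMIs was also thinned to that number and judged by the rule again. The means were then 45.6% and 14.9%, with control replicate 2 at 20.3% below asthma replicate 8 at 21.0% (exact p = 0.2). Thinning let cells with a PTPRC UMI in the full counts enter, and the denominator of control replicate 2 went from 43 to 69 cells. With PTPRC judged on the full counts that library had 29, and the means were 61.8% and 15.2%, without overlap (exact p = 0.1). Without the 82 cells with a lymphatic UMI in the denominator the means were 48.9% and 12.7% (exact p = 0.1), and without cells with 3 or more fibroblast UMIs they were 39.4% and 9.28% (exact p = 0.1). In dissociated tissue a share counts cells that were released and captured, and whether release differed was not tested.

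**Figure D4:**
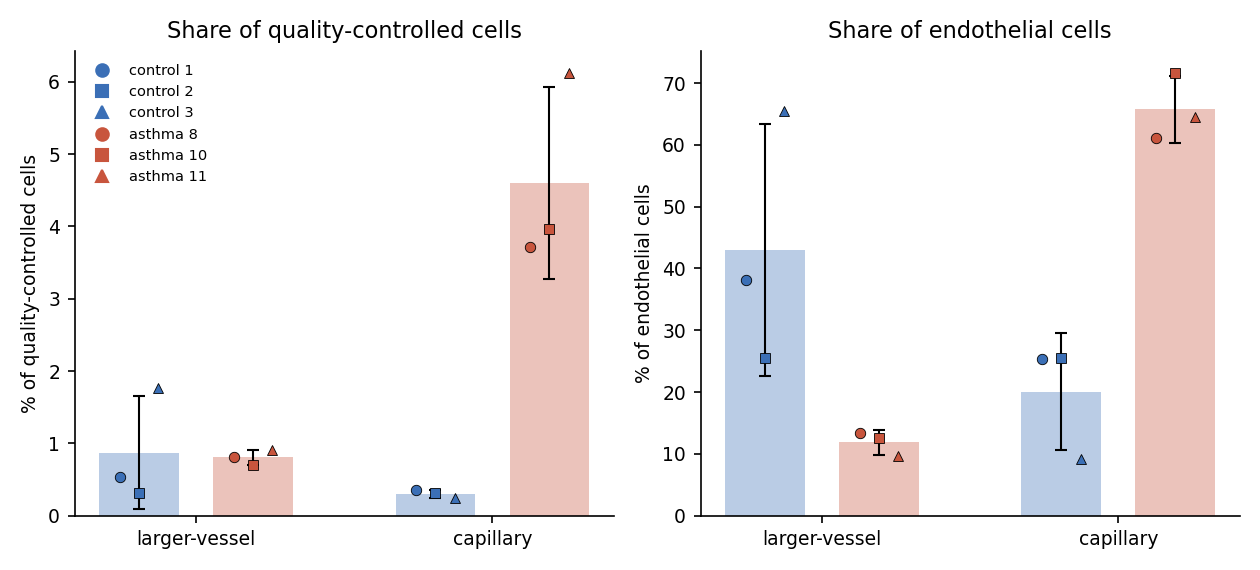
Larger-vessel endothelial cells of each library as a percent of all filtered cells and as a percent of endothelial cells, with capillary cells beside them (bars are means, error bars SD, n = 3, points single libraries). For larger-vessel cells the groups overlap in the first, from 0.313% to 1.77% in controls, and do not overlap in the second, where the lowest control is 25.6% and the highest asthma library 13.4%.

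Expression was then compared between asthma and control over the summed counts of all 214 members, with edgeR's quasi-likelihood test. None of 3214 genes tested passed an adjusted p of 0.05 with an absolute log2 change over 0.25 (0%). At an unadjusted p under 0.05 there were 197, DESeq2 called 12 genes up and 1 down, and a Wilcoxon test across single cells called 5 up and 20 down, which says nothing of the difference between groups of monkeys, since cells of 1 monkey are not replicates. In 392 genes (12.2%) the 3 libraries of the groups did not overlap, 201 higher (6.25%) and 191 lower (5.94%) in asthma. Levels in the rest of the text are TMM-scaled CPM unless said otherwise, controls 1, 2 and 3 first and asthma 8, 10 and 11 after them.

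The genes with the smallest p among those higher in asthma were largely genes of the 42 cells. C3, complement component 3, stood at 797, 219 and 513 CPM in the controls and 2554, 2986 and 3178 CPM in the asthma libraries (log2 change 2.49, edgeR adjusted p = 0.262). Only 1.04% of the members' C3 UMIs lay in the 172 cells, and there the asthma libraries were not higher, with a log2 change of -0.10 over the 5 libraries with at least 10 such cells. RSPO1, a Wnt agonist, stood at 23.1, 13.7 and 10.9 CPM against 101, 282 and 77.9 CPM (log2 change 3.39, edgeR adjusted p = 0.417), with 0.862% of its UMIs in the 172. BMP3 had none of its UMIs in the 172, and ATP1B1, a subunit of the sodium pump, had 19.1%. DESeq2 called C3, RSPO1 and ATP1B1 up. The mesothelial list showed the same direction, with a median log2 change of 2.62 over 4 genes tested, 2 of them without overlap.

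The genes with the smallest p among those lower in asthma lay mostly in the 172 cells. CD34, a sialomucin of endothelial surfaces, stood at 785, 727 and 1052 CPM in the controls and 505, 418 and 367 CPM in the asthma libraries (log2 change -1.0, edgeR adjusted p = 0.525). LDHB, lactate dehydrogenase B, stood at 352, 274 and 329 CPM against 171, 108 and 139 CPM (-1.20, edgeR adjusted p = 0.417), and NTN4, netrin 4 of basement membranes, at 144, 247 and 293 CPM against 92.1, 91.1 and 39.0 CPM (-1.61, edgeR adjusted p = 0.483). For each of them every asthma library was below every control library, and 93.2%, 88.1% and 92.1% of their UMIs lay in the 172. Over all genes, the 172 held 1005160 of the members' 1429117 UMIs. FXYD6, a regulator of the sodium pump, stood at 75.1, 82.3 and 111 CPM against 13.2, 0 and 5.57 CPM, and it was the gene that DESeq2 called down. For it, 3 counts in asthma replicate 10 would be 12.5 CPM before TMM scaling. The groups did not overlap for VWF either, with 3327, 2771 and 3433 CPM against 2150.1, 1905 and 1013 CPM (log2 change -0.91, edgeR adjusted p = 0.715), or for SELP (-0.92, edgeR adjusted p = 0.661). The lower values of VWF and SELP came with more of the 42 cells in the asthma group, 29 against 13, none of which carried either gene.

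Leaving out the 42 cells altered the values of several endothelial genes. VWF stood at 3876, 4728 and 3967 CPM in the controls and 3358, 4404 and 2265 CPM in the asthma libraries, which overlap (log2 change -0.32). CD34 stood at 868, 843 and 1178 CPM against 774, 909.5 and 560.0 CPM (-0.37), again with overlap. SELP, at 464, 585 and 601 CPM against 439, 459.6 and 436 CPM, was still lower in each asthma library, by a smaller amount (-0.30). LDHB stood at 377, 421 and 372 CPM against 185, 172 and 174 CPM (-1.12, edgeR adjusted p = 0.475). NTN4 stood at 162, 328 and 330 CPM against 130, 153 and 49.8 CPM (-1.23, edgeR adjusted p = 0.730). Both LDHB and NTN4 thus stayed lower without overlap, and neither was called. EPAS1, at 1413, 2083 and 1472 CPM against 2542, 2671 and 2501 CPM (0.65, edgeR adjusted p = 0.738), and FLT1, at 296, 70.2 and 248 CPM against 432, 364 and 423 CPM (0.84, edgeR adjusted p = 0.938), were higher in every asthma library without passing the test. EFNB2 stood at 168, 328 and 334 CPM against 911, 488 and 510.2 CPM (1.23, edgeR adjusted p = 0.585). Over all 214 members the log2 changes of EPAS1 and FLT1 were 0.16 and 0.19, with overlap. KDR and VEGFA were too low to be tested.

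This fit of the 172 cells over all 6 libraries was made after the 42 cells had been seen. It tested 1997 genes, of which 201 did not overlap (10.1%), 102 higher (5.11%) and 99 lower (4.96%), and called 1 gene up (0.0501%) and 2 down (0.1%), with 105 at an unadjusted p under 0.05. DESeq2 called 1 up and 3 down. Only 7 cells stood for control replicate 2, and without that library 2639 genes were tested and the same 3 genes were called. Without asthma replicate 8 no gene was called (edgeR), and without control replicate 3 none was called up. With the 12 cells with 3 or more mesothelial UMIs left out as well, 160 cells remained, 1940 genes were tested and again SLPI was called up (log2 change 4.47, edgeR adjusted p = 0.0113) and EGR1 (-3.69, edgeR adjusted p = 0.0119) and RARRES1 (-3.30, edgeR adjusted p = 0.0275) down.

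EGR1, an immediate-early transcription factor induced within minutes by stimulation, fell in asthma. It stood at 686, 304 and 435 CPM in the controls and 48.0, 57.4 and 24.9 CPM in the asthma libraries (log2 change -3.42, SE 0.42, edgeR adjusted p = 0.00529). Every asthma library was far below every control, and EGR1 was detected in 15, 3 and 36 cells of the controls and 6, 3 and 2 of the asthma libraries. Without asthma replicate 8 its edgeR adjusted p was 0.187. Without control replicate 2 its log2 change was -3.63 (edgeR adjusted p = 0.0121). Members were also cut by at least 3 endothelial genes instead of by fibroblast UMIs. That fit left out control replicate 2, with 7 such cells, and gave a log2 change of -2.99 (edgeR adjusted p = 0.268). In all 214 members EGR1 was not lower (0.13), asthma replicate 10 having 878 CPM there. T cells gave 252, 237 and 424 CPM of EGR1 in the controls and 324, 412 and 81.7 CPM in the asthma libraries, which overlap. Capillary cells gave 136, 93.0 and 1401 CPM against 259, 261 and 297 CPM before TMM scaling, overlapping as well.

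EGR1 was not alone among the immediate-early genes in its direction. Of 9 genes of this list tested in the 172 cells 1 was called down, 9 had a negative log2 change with a median of -1.23 (all genes -0.00934), and 5 (EGR1, FOSB, IER3, NR4A1 and ZFP36) did not overlap, against 4.96% of all genes lower without overlap. FOSB, a subunit of the AP-1 factor, stood at 1144, 398 and 481 CPM against 89.1, 115 and 274 CPM (-2.17, edgeR adjusted p = 0.432). FOS overlapped, at 3809, 1334 and 1787 CPM against 678, 440.4 and 1929 CPM. Over all 214 members the median of the list was -0.40 with 11 tested. Immediate-early genes respond to tissue dissociation, and heat shock genes, which do too, had a median of -0.41 with 8 of 8 negative and none of them called. The part of tissue handling was not tested.

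SLPI, a secreted inhibitor of leukocyte proteases, rose in the 172 cells of the asthma group. It stood at 6.73, 23.4 and 8.4 CPM in the controls and 267, 115 and 249 CPM in the asthma libraries (log2 change 4.42, SE 0.55, edgeR adjusted p = 0.00529). It was carried by few cells, 1, 1 and 2 in the controls and 10, 5 and 12 in the asthma libraries, with at most 13 UMIs in a cell. Without asthma replicate 8 or control replicate 3 its edgeR adjusted p was 0.204 and 0.0885. With members of at least 3 endothelial genes, a fit without control replicate 2, it was 0.0217 (log2 change 4.75). SLPI is also an epithelial and mesothelial product, and 36 of the 42 cells carried it. T cells, which should lack it, gave 2.15, 7.88 and 29.8 CPM in the controls and 21.1, 14.0 and 4.33 CPM in the asthma libraries, overlapping and well under the asthma values of the 172 cells.

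RARRES1, a retinoid-responsive membrane protein, fell, from 182, 93.6 and 208 CPM to 27.4, 9.57 and 12.4 CPM (log2 change -3.26, SE 0.50, edgeR adjusted p = 0.0264). All 3 asthma libraries were below all controls. Its call stood without control replicate 2 and was lost without any of asthma replicates 8, 10 or 11, and without control replicate 1 or control replicate 3 the gene was too low to be tested. With members of at least 3 endothelial genes, a fit without control replicate 2, no gene was called down. Over all 214 members RARRES1 overlapped, at 191, 54.9 and 179.9 CPM against 118, 8.28 and 200.4 CPM (-0.52).

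**Figure D5:**
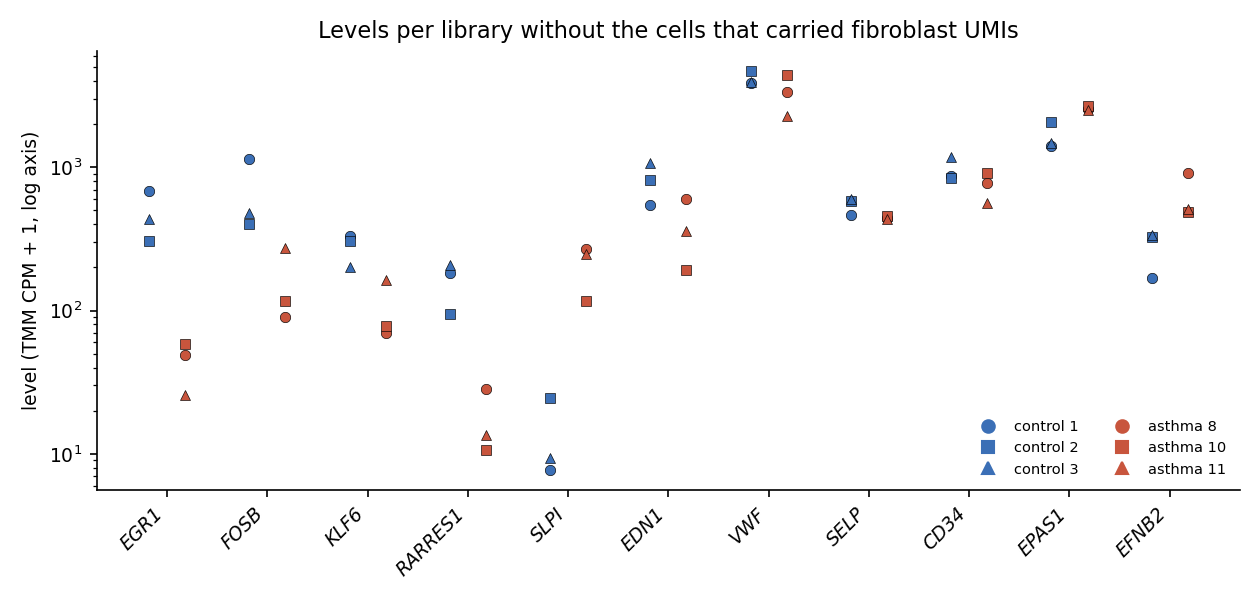
Level of 11 genes in the larger-vessel cells with under 3 fibroblast UMIs, by library (TMM-scaled CPM plus 1, log axis), with 3 control and 3 asthma libraries. EGR1, FOSB, KLF6 and RARRES1 lie lower and SLPI, EPAS1 and EFNB2 higher in every asthma library, while VWF, CD34 and EDN1 overlap.

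The other lists fixed for endothelial functions had no called gene in the 172 cells. For the arterial list the median log2 change was 0.46 over 11 genes tested, with EFNB2 alone without overlap, and counts of 1 gene in lists of this size lie near the shares of all genes (5.11% higher, 4.96% lower). For the venous list it was -0.30 over 9, with 1 gene lower without overlap. The medians were -0.12 for leukocyte adhesion (7 tested), -0.00 for coagulation (8 tested) and 0.28 for interferon response (10 tested, 8 positive). The list of flow-responsive transcription factors had a median of -0.10 over 10 genes, 4 positive and 6 negative, with SOX18 higher and KLF6 lower without overlap. KLF6, a zinc finger factor induced by injury, stood at 329.8, 304 and 199 CPM against 68.5, 76.6 and 162 CPM (-1.46, edgeR adjusted p = 0.57). Antigen presentation, by which a cell shows peptides to T cells, had a median of -0.26 over 5 genes in the 172 and -0.66 over 8 in all 214. HLA-DPA1, at 1005, 1056 and 2405 CPM against 781, 455 and 579 CPM in all 214, was lower in every asthma library (-1.31, edgeR adjusted p = 0.661), and overlapped in the 172 (-0.72). EDN1 stood at 479, 480.1 and 931 CPM against 386, 82.8 and 161 CPM in all 214 (-1.60, edgeR adjusted p = 0.715), and overlapped in the 172 (-1.07).

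Whether asthma changed these cells differently from capillary endothelium was asked of the difference itself, over all members. It was called for 6 of 4339 genes (0.138%), 4 with a more positive change in larger-vessel cells (0.0922%) and 2 with a more negative one (0.0461%), and 365 had an unadjusted p under 0.05. EDN1 was lower in asthma in larger-vessel cells while capillary cells had 45.3, 0 and 66.7 CPM in the controls and 350.0, 301 and 287 CPM in the asthma libraries, before TMM scaling, and the difference was -4.30 (log2, SE 0.73, edgeR adjusted p = 0.0374). LEPR, the leptin receptor, stood at 113, 195 and 100.3 CPM in larger-vessel cells of the controls and 13.7, 41.8 and 67.0 CPM in asthma, also before TMM scaling. In capillary cells LEPR stood at 102, 93.0 and 66.7 CPM against 240.2, 397 and 354 CPM on the same scale (difference -3.39, SE 0.60, edgeR adjusted p = 0.0459). For both genes every asthma library was lower in larger-vessel cells and higher in capillary cells. Both calls were lost without control replicate 3 (edgeR adjusted p = 0.134 for each), without asthma replicate 8 (0.0521 for EDN1 and 0.271 for LEPR) and without asthma replicate 10 (0.156 and 0.191), and at a mitochondrial maximum of 10% (0.0627 and 0.056). With at least 3 larger-vessel genes EDN1 was called and LEPR was not. Control replicate 2 had 9 members under that rule and at the 10% maximum, and was left out of both fits. With at least 3 endothelial genes control replicate 1 was the only control with at least 10 cells of both classes. The differences there were -4.38 for EDN1 and -1.58 for LEPR. The capillary values of the controls rest on 16, 11 and 10 cells, where 3 counts make 34.0, 139.6 and 66.7 CPM.

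The 4 genes with a more positive change in larger-vessel cells were ATP1B1, ALDH3A1, KLF5 and EZR. In each, control replicate 3 had the highest capillary level. Before TMM scaling, ALDH3A1, an aldehyde dehydrogenase, stood there at 1068 CPM against at most 22.6 CPM in the other 5 libraries. Without cells of either class with 3 or more fibroblast UMIs, 2869 genes were tested, SLPI alone was called (difference 11.1, SE 1.5, edgeR adjusted p = 0.0132), and none of the 6 was. There EDN1 and LEPR kept their direction, with -3.54 (edgeR adjusted p = 0.219) and -2.22 (edgeR adjusted p = 0.707). SLPI in capillary cells stood at 10788 CPM in control replicate 3 and at most 113 CPM in the other libraries, before TMM scaling. Without control replicate 3 the SLPI difference was 4.96 (edgeR adjusted p = 0.122), and its call was also lost without asthma replicate 8 (0.396) or asthma replicate 10 (0.0866).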

How the data were processed

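Single-cell 3′ RNA counts of 6 lung libraries were used. The authors made UMI counts with Cell Ranger on the macFas6 genome and deposited them without normalization. The submitters' processing notes give version 2.1.1 and the file headers 4.0.0, while the study's methods name another. Cells with more than 500 and fewer than 5000 genes and at most 25% mitochondrial UMIs were kept, 4509, 3511 and 4066 in the controls and 4305, 4719 and 4278 in the asthma group. Counts of members were summed per library with at least 10 members, and tested with edgeR 4.0.16 (quasi-likelihood, TMM, filterByExpr) in R 4.3.3, with Benjamini-Hochberg adjustment. The difference from capillary cells was fitted with the library as a block, since both classes came from the same libraries. DESeq2 1.42.0 was an alternative. Shares were compared with exact permutation tests over all assignments of the libraries to groups (numpy 2.4.6). The Wilcoxon test across cells used scipy 1.17.1. Doublets were scored with scanpy 1.11.5. A gene was called at an adjusted p under 0.05 and an absolute log2 change over 0.25. For a class comparison, 20 CPM were added before log2. The text names the rule genes, the leading and listed genes, and 6 genes fixed by name. The others, chosen after their values were seen, are given as values. Members and lists were chosen with earlier results of these data known. Results without cells with 3 or more fibroblast UMIs, over all 6 libraries, without those with 3 or more mesothelial UMIs, with at least 3 endothelial genes, and with lymphatic cells out of the denominator or PTPRC judged before thinning were chosen after seeing the data. Intervals and floors (3 counts) cover counting error only, and p-values measure the spread between 3 monkeys per group.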

Additional observations from a re-analysis of the deposited data

Results flagged for a closer look

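For 6 genes the change between asthma and control differed between larger-vessel and capillary endothelial cells by a test of the difference (edgeR, quasi-likelihood, over all members). The differences were 5.47 for ATP1B1 (log2, SE 0.56, edgeR adjusted p = 0.000743), 8.49 for ALDH3A1 (SE 1.14, edgeR adjusted p = 0.00814), 4.63 for KLF5 (SE 0.72, edgeR adjusted p = 0.0252), 3.74 for EZR (SE 0.60, edgeR adjusted p = 0.0264), -4.30 for EDN1 and -3.39 for LEPR. Levels in this paragraph are CPM before TMM scaling. ATP1B1 was higher in asthma in larger-vessel cells, at 28.2, 13.0 and 46.5 CPM in the controls and 188, 179.6 and 234 CPM in the asthma libraries. In capillary cells it stood at 249, 0 and 756 CPM against 58.0, 66.3 and 81.7 CPM. EZR, which links the membrane to actin, stood at 107, 39.0 and 165 CPM against 417, 685 and 391 CPM in larger-vessel cells, with 8.94% of its UMIs in the 172 members with under 3 fibroblast UMIs. Without cells of either class with 3 or more fibroblast UMIs the differences were 2.95 for ATP1B1 (edgeR adjusted p = 0.802) and 1.01 for EZR (edgeR adjusted p = 0.894). With at least 3 endothelial genes control replicate 1 was the only control with at least 10 cells of both classes. The EZR difference there was -4.94 with an SE of 8.48, so its sign is not settled. Of the 6 genes only ATP1B1 was still called without control replicate 3, without asthma replicate 8 or without asthma replicate 10.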

How the results depend on the processing

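With 107 members per group, and 10 to 16 cells in the control capillary classes, depth limits low genes most. No paired analysis was possible because the replicate numbers of the control (1, 2, 3) and asthma (8, 10, 11) libraries share none, while the difference from capillary cells was blocked by library. The cause of each shift below was not tested. Most fits kept only libraries with at least 10 cells. Control replicate 2 had 9 members at a mitochondrial maximum of 10%, 9 with at least 3 larger-vessel genes and 7 with at least 3 endothelial genes. These fits left it out, as did the fit with at least 20 cells per library. For the difference from capillary cells with at least 3 endothelial genes, control replicate 1 was the only control kept. The difference in the share of filtered cells was 0.385 points without control replicate 3 and ranged from -0.344 to 0.385 with each library left out, that in the share of endothelial cells from -39.9 to -20.0. Genes called up and down between the groups, 0 and 0, became 1 and 0 with at least 3 endothelial genes, 12 and 1 with DESeq2, 92 and 42 with no filter on low counts, 1 and 2 without cells with 3 fibroblast UMIs (also over all 6 libraries, and without cells with 3 mesothelial UMIs), and 5 and 20 with the Wilcoxon test across cells, and stayed at 0 and 0 with each library left out. Genes whose change differed from capillary cells, 4 up and 2 down, became 34 and 9 with at least 3 larger-vessel genes, 19 and 2 with DESeq2, 26 and 7 at a mitochondrial maximum of 10%, 69 and 33 with no filter, 9 and 2 without doublets, and 1 and 0 without cells with 3 fibroblast UMIs. With each library left out they ranged from 1 to 32 up and from 0 to 7 down, with 1 and 0 without control replicate 3. Of 463 alternative values of 30 gene changes, 400 kept direction and side of the threshold, 24 lost the call, 21 gained it and 18 changed sign. Sign changes were C3 (-0.10), ITGA5 (0.63, 0.47 over all 6 libraries) and EGR1 (-3.63, -3.42) without cells with 3 fibroblast UMIs. ITGA5 and EGR1 also changed sign without cells with 3 mesothelial UMIs (0.46, -3.69). With at least 3 endothelial genes ITGA5 (0.55), EGR1 (-2.99) and the EZR difference (-4.94, SE 8.48) did. FLT1 did with at least 20 cells per library (-0.19), at a mitochondrial maximum of 10% (-0.32) and with at least 3 larger-vessel genes (-0.48). Each of these FLT1 fits was also without control replicate 2. Leaving out a library, FLT1 changed sign without control replicate 2 or asthma replicate 8 (range over libraries left out -0.19 to 0.49). ITGA5 did without asthma replicate 11 (-0.34 to 0.046), and EGR1 (-0.43 to 0.36) and RARRES1 (-1.32 to 0.066) without asthma replicate 10.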
